A study of Mus musculus with 12 samples.

Results

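The genes that moved when *L. acidophilus* was added on top of FK506 were read from 3 libraries of CD4+ T cells given both agents (the combination) and 3 libraries given FK506 alone. These 6 libraries belong to a set of 12, with 3 each of anti-CD3, *L. acidophilus*, FK506 and *L. acidophilus* + FK506. Of 45777 genes in the table, 23585 were compared, namely those counted at least once in 3 or more libraries. All cells came from the spleen of wild type mice, were selected with CD4-coated magnetic beads, and were stimulated with anti-CD3 at 0.5 ug/mL for 3 days, so both groups carried that stimulus. The labels give Balb/c mice aged 7 weeks, whereas the study's methods name B6 mice for the sequenced cells. The bacterium was inactivated by heat in the study's cultures. The study's methods give doses of both agents for splenocyte cultures with the same stimulus and time. The sources used here do not state them for the sequenced cultures. Nothing in the labels says whether replicates came from separate mice or cultures, so p-values measure only the spread between these libraries, which may be technical.

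FK506 (tacrolimus) blocks calcineurin, the phosphatase that lets the transcription factor NFAT enter the nucleus after T-cell receptor stimulation and switch on cytokine genes. *L. acidophilus* is a Gram-positive lactic acid bacterium, and wall components of such bacteria are sensed by receptors such as TLR2 and NOD2, mostly on myeloid cells. Activated CD4+ T cells divide, enlarge their ribosome and metabolic machinery, and take on helper programmes: Th1 cells make IFN-γ, Th2 cells make IL-4, IL-5 and IL-13, Th17 cells make IL-17, and regulatory (Treg) cells express *Foxp3*.

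Total counts ran from 45416397 to 64658165 per library over the 12 libraries, with replicate 1 the deepest of each group. With edgeR's quasi-likelihood test, 905 genes were at least 2-fold higher in the combination at an adjusted p under 0.05 (3.84% of genes tested) and 849 were at least 2-fold lower (3.6%). At the adjusted p alone, the rule used for gene lists below, 1929 genes were higher (8.18%) and 2579 lower (10.9%). These are the shares to set beside each list count. The median log2 fold change over all genes was 0.03. Without FK506 replicate 3, the 2-fold count was 978, with 405 higher and 573 lower. Combination replicates 2 and 3 were close to each other, with a chi-square of their counts of 4.52 per degree of freedom, against 72.1 and 79.2 for replicate 1 with either and 43.7 to 57.4 among the FK506 libraries. Replicates 2 and 3 of *L. acidophilus* alone were likewise close (8.95), against 55.1 and 54.4 for its replicate 1 with either. These close libraries still differed by more than sampling noise and were counted as separate samples.

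**Figure D1:**
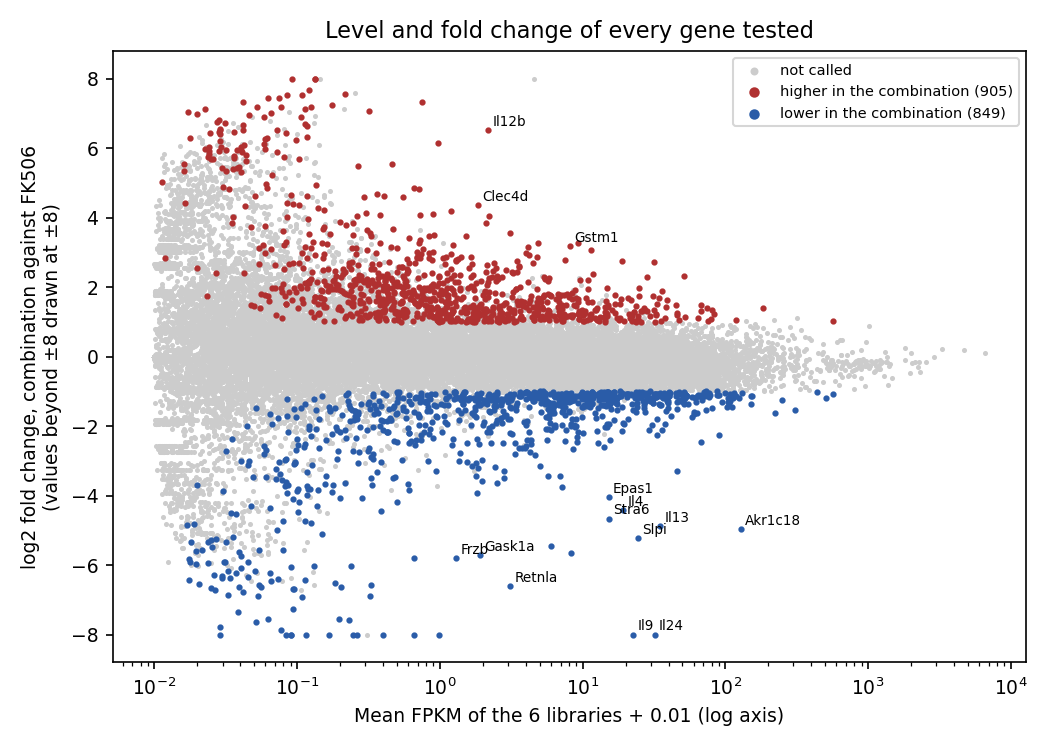
Log2 fold change of the combination against FK506 for each of the 23585 genes tested, by mean FPKM of the 6 libraries (+ 0.01, log axis). Red and blue points are the 905 genes called higher and the 849 called lower. Values beyond 8 are drawn at 8, so *Il9* and *Il24*, at 0 in every combination library, lie at the lower edge, and *Il12b* lies highest of the labelled genes.

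The labelled cell type was checked by its markers, and T-cell marker transcripts were higher in the combination. Of 8 markers 4 rose and none fell (2 rose without FK506 replicate 1 or without FK506 replicate 3), and their summed level was 2907 to 3153 CPM (counts scaled to library size) with FK506 and 3950 to 4464 with the combination. *Cd4* rose from 154, 147 and 131 to 256, 237 and 242 FPKM (log2 fold change 0.68, SE 0.10, adjusted p = 0.001) and *Cd3e* by 0.55 on the log2 scale (adjusted p = 0.0038). In a bulk library, fewer cells of one type and less RNA per cell cannot be told apart, and the same holds for more. The part of this marker difference in the results for T-cell genes was not tested. Markers of other cells were also present: B-cell markers summed to 1413 to 3427 CPM over the 6 libraries, and macrophage and monocyte markers to 26.9 to 211, described further on. Of 6 dendritic cell markers tested 2 rose and 1 fell, with none falling without FK506 replicate 1 or any 1 combination library. Of 6 neutrophil markers 2 rose, with none rising without FK506 replicate 2 or 3 or combination replicate 1 or 3 and 1 rising without anti-CD3 replicate 1 or 3 or combination replicate 2. Of 4 NK-cell and 6 stromal markers none passed. Mast cell and basophil markers summed to 9.56 to 17.7 CPM with FK506 and 42.0 to 55.3 with the combination, and of 7 tested 1 rose and 1 fell. Of 2 CD8 T-cell markers 1 fell, and of 4 erythroid and 4 platelet markers 1 each rose. These 3 counts reached 0 in some fits without 1 library. Of 22 T-cell receptor signalling genes 6 rose and none fell, with the kinase *Fyn* at a log2 fold change of 0.59 (adjusted p = 0.0056).

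The cytokine genes *Il4*, *Il13* and *Il5* fell to a small part of their FK506 level. Of a list of 18 Th2 and Th9 genes, 9 fell and none rose, with a median log2 fold change of -1.11. The FK506 libraries held *Il4*, the cytokine that drives Th2 differentiation, at 36.9, 23.4 and 49.5 FPKM, and the combination libraries at 1.85, 1.27 and 2.23 (log2 fold change -4.42, SE 0.70, adjusted p = 0.0016). For *Il13*, a cytokine of allergic inflammation, the levels were 63.1, 48.9 and 90.3 FPKM with FK506 and 2.14, 2.34 and 2.92 with the combination (log2 fold change -4.87, SE 0.53, adjusted p = 0.00022). The eosinophil growth factor *Il5* stood at 5.79, 3.21 and 4.94 FPKM with FK506 and at 0.667, 0.187 and 0.281 with the combination (log2 fold change -3.65, SE 0.69, adjusted p = 0.0041). No combination library reached the level of any FK506 library for these 3 genes, as was so for 4905 of the 23585 genes tested. The rule that named the largest falls required such separation, so it is no separate support for genes named that way.

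*Il9*, the signature cytokine of Th9 cells, had 1085, 910 and 2370 counts in the FK506 libraries and 0 in each combination library. Against a floor of 3 counts per combination library, *Il9* was at least 483-fold lower. *Il24*, an IL-10 family cytokine, had 5660, 1516 and 6039 counts with FK506 and 0 in each combination library, at least 1388-fold lower on the same floor. These 2 genes were the only ones with at least 500 counts in every library of the other 3 groups and 0 in all of the combination, and no gene met this criterion in any of the other groups. Whether the counts of 0 come from a loss of these transcripts or from a fault in making the table cannot be told apart from the values used here, so the bounds hold for the table's counts. *Il27*, which encodes a subunit of the cytokine IL-27, was also at 0 in the combination, with 35, 27 and 97 counts in the FK506 libraries (at least 17-fold lower), and did not pass with limma on log2(FPKM + 1) (adjusted p = 0.093).

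*Gata3*, the transcription factor that specifies Th2 cells, fell less than the cytokines, from 63.4, 50.5 and 70.9 FPKM with FK506 to 31.1, 29.4 and 31.5 with the combination (log2 fold change -1.10, SE 0.13, adjusted p = 0.0003). The receptor chain *Il4ra* fell as well (log2 fold change -1.12, SE 0.16, adjusted p = 0.0009), as did the Th2 chemokine receptor *Ccr4* (log2 fold change -0.90, SE 0.18, adjusted p = 0.0048) and the haematopoietic cytokine *Il3* (log2 fold change -2.24, SE 0.42, adjusted p = 0.0038). The members that did not pass included *Csf2*, at a log2 fold change of -0.35, *Maf* at 0.41 and *Il1rl1*, the IL-33 receptor, at -0.11. The members thus ranged from cytokines at 0 in every combination library to genes whose groups did not differ by the test.

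**Figure D2:**
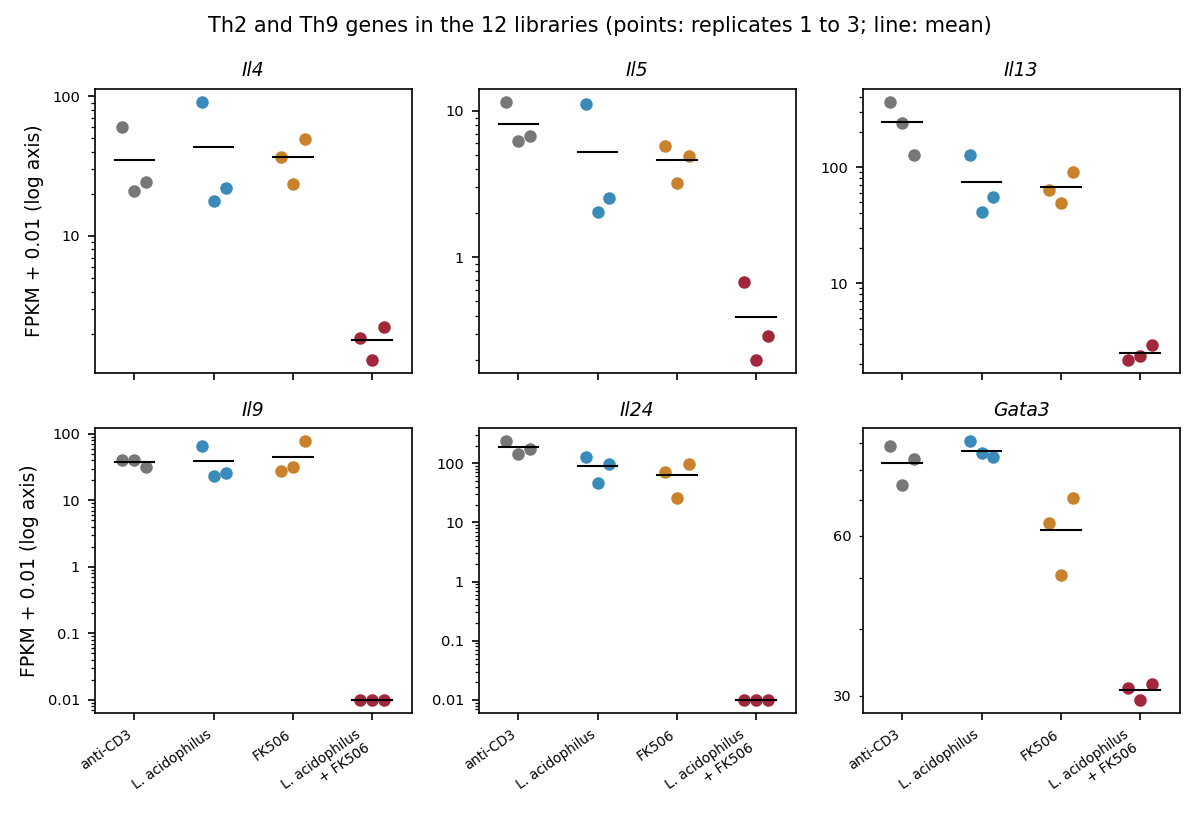
FPKM (+ 0.01, log axis) of 6 Th2 and Th9 genes in the 12 libraries, 1 point per library and a line at each group mean. In all 6 panels the 3 combination libraries lie below the 9 others, and *Il9* and *Il24* sit at 0.

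*Il4*, *Il13* and *Il5* lie together on mouse chromosome 11 (GRCm38), *Il4* at chr11:53612460-53618665, *Il13* at chr11:53631323-53634702 and *Il5* at chr11:53720794-53725103. *Rad50*, the DNA repair gene between *Il13* and *Il5*, had 17.1, 16.1 and 20.9 FPKM with FK506 and 10.3, 12.7 and 12.3 with the combination (log2 fold change -0.72, SE 0.20, adjusted p = 0.026). It passed the test less firmly: it did not pass without FK506 replicate 3 or combination replicate 1, 2 or 3 (adjusted p up to 0.106). *Kif3a*, a kinesin gene on the other side of *Il4*, moved from 4.58, 3.48 and 7.75 to 3.34, 2.82 and 2.73 FPKM (log2 fold change -0.93, SE 0.28, adjusted p = 0.039), and it did not pass without *L. acidophilus* replicate 3 or FK506 replicate 1 or 3 or combination replicate 1, 2 or 3 (adjusted p up to 0.176). The interferon regulatory gene *Irf1*, beyond *Il5*, did not pass (95, 118 and 109 FPKM with FK506, 125, 120.5 and 109 with the combination, log2 fold change 0.03, adjusted p = 0.91). These neighbours were chosen for their position after the values were seen. Of the 6 genes described here, the 3 cytokine genes had the largest fold changes.

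Promoter windows of the Th2 cytokine genes are shown because these cytokine transcripts were among the largest falls, and because NFAT, the factor upstream of which FK506 acts, binds the core GGAAA. The windows run from 250 bases before to 50 after the transcription start, in RefSeq's GRCm38.p6 annotation, written along the gene's own strand, with GGAAA and its reverse complement TTTCC in capitals.
Il4, chr11:53618616-53618915, minus strand: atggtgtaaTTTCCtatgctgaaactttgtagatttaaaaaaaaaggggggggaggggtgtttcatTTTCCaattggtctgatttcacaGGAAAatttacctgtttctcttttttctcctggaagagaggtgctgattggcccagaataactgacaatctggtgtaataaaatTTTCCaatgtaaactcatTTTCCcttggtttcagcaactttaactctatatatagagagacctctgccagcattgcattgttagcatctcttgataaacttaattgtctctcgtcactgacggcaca
Il13, chr11:53634653-53634952, minus strand: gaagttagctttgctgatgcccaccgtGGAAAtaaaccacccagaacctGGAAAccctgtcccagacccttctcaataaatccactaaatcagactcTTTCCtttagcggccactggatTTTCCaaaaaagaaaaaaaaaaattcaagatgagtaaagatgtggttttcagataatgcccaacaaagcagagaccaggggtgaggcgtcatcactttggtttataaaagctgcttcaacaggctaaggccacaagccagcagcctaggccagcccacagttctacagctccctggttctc
The *Il4* window holds 5 copies of the core and the *Il13* window 4. Of the 16 list members with a promoter in the table, 13 hold the core at least once (81.2%), against 64.4% of all 27025 genes. A match describes the letters in the window and is not a site shown to be bound.

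Among the other large falls, *Akr1c18*, a steroid-metabolising reductase, was the most abundant, at 188, 182 and 376 FPKM with FK506 and 5.84, 10.4 and 9.51 with the combination (log2 fold change -4.97, SE 0.55, adjusted p = 0.00025). *Epas1*, the hypoxia-inducible factor HIF-2α, went from 45.1, 15.9 and 24.9 to 1.92, 1.77 and 1.77 FPKM (log2 fold change -4.05, SE 0.42, adjusted p = 0.0002). *Stra6*, the retinol transporter, stood at 25.3, 25.9 and 36.5 FPKM with FK506 and 0.908, 1.45 and 1.33 with the combination (log2 fold change -4.66, SE 0.57, adjusted p = 0.00038). *Frzb*, a secreted Wnt antagonist, fell by 5.79 on the log2 scale, *Gask1a* by 5.71 and the protease inhibitor *Slpi* by 5.22. *Retnla*, a gene induced by IL-4 in macrophages, was uneven between FK506 libraries, at 16.8, 1.08 and 0.57 FPKM against 0, 0.173 and 0 in the combination, and it did not pass without FK506 replicate 1 or combination replicate 1, 2 or 3 (adjusted p up to 0.244).

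DNA replication genes fell together. Of 36 DNA replication genes 34 fell and none rose, against 10.9% of all genes lower, with a median log2 fold change of -0.99. The replicative helicase subunit *Mcm2* stood at 76.3, 74.4 and 85.5 FPKM with FK506 and 36.6, 39.1 and 37.8 with the combination (log2 fold change -1.15, SE 0.12, adjusted p = 0.0002). *Mcm10*, which helps to activate that helicase, fell from 22.7, 14.9 and 19.3 to 7.13, 9.86 and 9.14 FPKM (log2 fold change -1.38, SE 0.12, adjusted p = 0.00012), and the licensing factor *Cdc6* from 19.9, 13.1 and 17.1 to 5.35, 7.2 and 6.95 (log2 fold change -1.35, SE 0.12, adjusted p = 0.00014). *Pcna*, the polymerase clamp, was at 344, 278 and 300.1 FPKM with FK506 and 189, 179 and 183 with the combination (log2 fold change -0.83, SE 0.11, adjusted p = 0.00072). The ribonucleotide reductase subunit *Rrm2*, which supplies deoxynucleotides, fell by 1.2 on the log2 scale. In each of these 5 genes the combination libraries lay below the FK506 libraries, as in 4905 of the 23585 genes tested. The anti-CD3, *L. acidophilus* and FK506 groups stood at similar levels, as at 74, 71.3 and 78.7 mean FPKM for *Mcm2*. Leaving out 1 library at a time, 31 to 35 of the 36 replication genes fell. B-cell markers were lower in the same libraries (11 of 18 fell, median log2 fold change -1.09, summed level 1768 to 3427 CPM with FK506 and 1413 to 1598 with the combination). Their part in the falls of replication and mitosis genes, and of the ribosome, lipid and other metabolic genes below, was not tested.

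Promoters of replication genes are often bound by E2F factors at sites such as TTTCCCGC and TTTGGCGC, and windows of the 2 genes of the list with the largest falls among those that hold such a site are shown, with the matches on either strand in capitals.
Cdc6, chr11:98907901-98908200, plus strand: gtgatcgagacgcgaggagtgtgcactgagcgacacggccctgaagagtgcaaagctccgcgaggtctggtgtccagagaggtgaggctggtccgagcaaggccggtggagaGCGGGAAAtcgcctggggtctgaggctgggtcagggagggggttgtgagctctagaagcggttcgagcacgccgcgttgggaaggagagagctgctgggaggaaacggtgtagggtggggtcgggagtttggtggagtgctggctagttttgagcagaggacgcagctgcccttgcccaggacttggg
Mcm3, chr1:20820263-20820562, minus strand: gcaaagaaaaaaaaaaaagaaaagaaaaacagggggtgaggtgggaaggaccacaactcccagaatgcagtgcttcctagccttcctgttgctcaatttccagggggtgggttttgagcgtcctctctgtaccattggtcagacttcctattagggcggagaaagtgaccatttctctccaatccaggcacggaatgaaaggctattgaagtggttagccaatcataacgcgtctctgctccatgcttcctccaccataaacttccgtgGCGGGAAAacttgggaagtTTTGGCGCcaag
In the list, 10 of the 29 members with a promoter in the table hold at least 1 of these 2 motifs (34.5%), against 1.8% of all genes. The first motif contains TTTCC, so it overlaps the NFAT core. *Mcm3* itself fell from 127, 104 and 120.3 to 54.5, 61.5 and 58.2 FPKM (log2 fold change -1.10, SE 0.10, adjusted p = 0.00015).

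The median fall of mitosis genes was smaller. Of 30 mitosis genes 23 fell and none rose (median log2 fold change -0.57), but without FK506 replicate 3 only 9 fell, and 7 fell in replicates 2 and 3 alone. *Aurkb*, a kinase of chromosome segregation, stood at 54.2, 44.1 and 56.6 FPKM with FK506 and 25.2, 32.4 and 31.4 with the combination (log2 fold change -0.90, SE 0.12, adjusted p = 0.00072). For the mitotic kinase *Cdk1* the log2 fold change was -0.82 (adjusted p = 0.0012), and for topoisomerase *Top2a* -0.95 (adjusted p = 0.0027). *Mki67*, the usual proliferation marker, did not pass (110.5, 86 and 101 FPKM with FK506, 53.7, 98.9 and 98.2 with the combination, adjusted p = 0.34), and combination replicate 1 alone was low. Of 22 cyclins, their kinases and inhibitors, 12 fell and 3 rose (1 rose without FK506 replicate 3). *Ccne1*, the cyclin of S-phase entry, fell from 28.9, 22.5 and 29.9 to 9.22, 11.3 and 11.1 FPKM (log2 fold change -1.46, SE 0.13, adjusted p = 0.00012), while the inhibitor of the same kinase complex, *Cdkn1b* (p27), rose from 29.6, 33.6 and 24.4 to 60.6, 55.6 and 57.9 (log2 fold change 0.90, SE 0.11, adjusted p = 0.00049). A second inhibitor, *Cdkn1a* (p21), went the other way, at 79.3, 81 and 106 FPKM with FK506 and 42, 62.3 and 61.8 with the combination (adjusted p = 0.018), and it did not pass without FK506 replicate 3 or combination replicate 1 (adjusted p up to 0.0844).

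*Myc* and the genes that build ribosomes fell in the same libraries. Of 35 genes in this list 34 fell and none rose, with a median log2 fold change of -1.12, and 32 to 35 fell when 1 library was left out. *Myc*, the growth regulator, was at 58.4, 60.04 and 82.2 FPKM with FK506 and 28.3, 24.5 and 22.6 with the combination (log2 fold change -1.50, SE 0.16, adjusted p = 0.0002). *Rrp12*, needed for export of ribosomal subunits, fell from 16.4, 16 and 22.1 to 6.08, 6.39 and 6.36 FPKM (log2 fold change -1.61, SE 0.13, adjusted p = 0.00012), and the nucleolar protein *Nolc1* from 52.2, 51.8 and 68.2 to 23.8, 21 and 20.8 (log2 fold change -1.48, SE 0.14, adjusted p = 0.00017). Nucleolin, encoded by *Ncl*, had a log2 fold change of -1.06 (adjusted p = 0.0011). Small nucleolar RNAs, which guide rRNA modification, were taken by annotation class, and since many lie in introns of host genes their reads may be shared: of 314 tested, 30 were called at least 2-fold lower and 0 higher, against 3.6% of all genes lower. A pair of growth genes chosen after their values were seen also fell: *Srm*, which makes the polyamine spermidine (log2 fold change -1.93, SE 0.20, adjusted p = 0.00021), and *Cad*, which starts pyrimidine synthesis (log2 fold change -1.58, SE 0.14, adjusted p = 0.00012). *Odc1*, the first enzyme of polyamine synthesis, did not pass (105, 80.7 and 90.3 FPKM with FK506 and 94.2, 92.7 and 93.4 with the combination, adjusted p = 0.77).

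MYC binds the E-box CACGTG, and the windows of the 2 genes of this list with the largest falls among those that hold this hexamer are shown with it in capitals (it reads the same on both strands).
Nop2, chr6:125131633-125131932, plus strand: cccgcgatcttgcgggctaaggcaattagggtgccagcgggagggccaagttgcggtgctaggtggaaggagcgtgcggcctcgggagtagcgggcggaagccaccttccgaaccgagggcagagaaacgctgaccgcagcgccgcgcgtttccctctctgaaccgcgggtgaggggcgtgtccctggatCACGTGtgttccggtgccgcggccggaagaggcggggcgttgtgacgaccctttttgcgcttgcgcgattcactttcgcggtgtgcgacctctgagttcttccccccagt
Utp20, chr10:88826765-88827064, minus strand: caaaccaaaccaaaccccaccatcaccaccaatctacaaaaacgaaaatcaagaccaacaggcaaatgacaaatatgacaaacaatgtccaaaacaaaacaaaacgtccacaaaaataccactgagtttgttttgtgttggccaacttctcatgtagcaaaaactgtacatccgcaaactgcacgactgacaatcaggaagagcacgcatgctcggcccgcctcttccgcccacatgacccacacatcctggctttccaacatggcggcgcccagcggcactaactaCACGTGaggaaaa
*Nop2*, an rRNA methyltransferase, fell from 45.4, 44.1 and 55.6 to 20.4, 20.1 and 19.7 FPKM, and *Utp20*, a processing factor of the small subunit, from 14, 14.4 and 18.2 to 5.58, 7.24 and 7.2. The hexamer is in 7 of the 29 list members with a promoter in the table (24.1%), against 8.09% of all genes.

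Many lipid synthesis genes and some of glycolysis and amino acid metabolism fell. Of 27 sterol and fatty acid synthesis genes 20 fell and none rose (median log2 fold change -0.74, with 13 falling without FK506 replicate 3). *Scd2*, a fatty acid desaturase, fell from 105, 56.2 and 176 to 12.7, 26.4 and 27.3 FPKM (log2 fold change -2.46, SE 0.39, adjusted p = 0.0018), and fatty acid synthase *Fasn* from 57.2, 47.9 and 61.8 to 21.3, 25.3 and 24.2 (log2 fold change -1.33, SE 0.14, adjusted p = 0.0002). The cholesterol enzyme *Sqle* had a log2 fold change of -1.2 (adjusted p = 0.00017). Of 24 glycolysis and hypoxia genes 13 fell and 1 rose, with 8 falling without FK506 replicate 3 or without combination replicate 2 or 3. None rose without any 1 of the 6 libraries compared or without *L. acidophilus* replicate 1 or 2. Hexokinase *Hk2* stood at 14.4, 12.5 and 21.6 FPKM with FK506 and 3.47, 3.86 and 4.07 with the combination (log2 fold change -2.20, SE 0.24, adjusted p = 0.00025). Of 25 amino acid and one-carbon genes of the ATF4 response, 9 fell and 1 rose. The serine-glycine enzyme *Shmt1* fell from 27, 27.8 and 36.4 to 7.64, 9.07 and 8.75 FPKM (log2 fold change -1.94, SE 0.16, adjusted p = 0.00012), whereas the cystine importer *Slc7a11* rose from 0.174, 0.268 and 0.113 to 0.957, 1.88 and 1.92 (log2 fold change 3.00, SE 0.46, adjusted p = 0.0014).

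**Figure D3:**
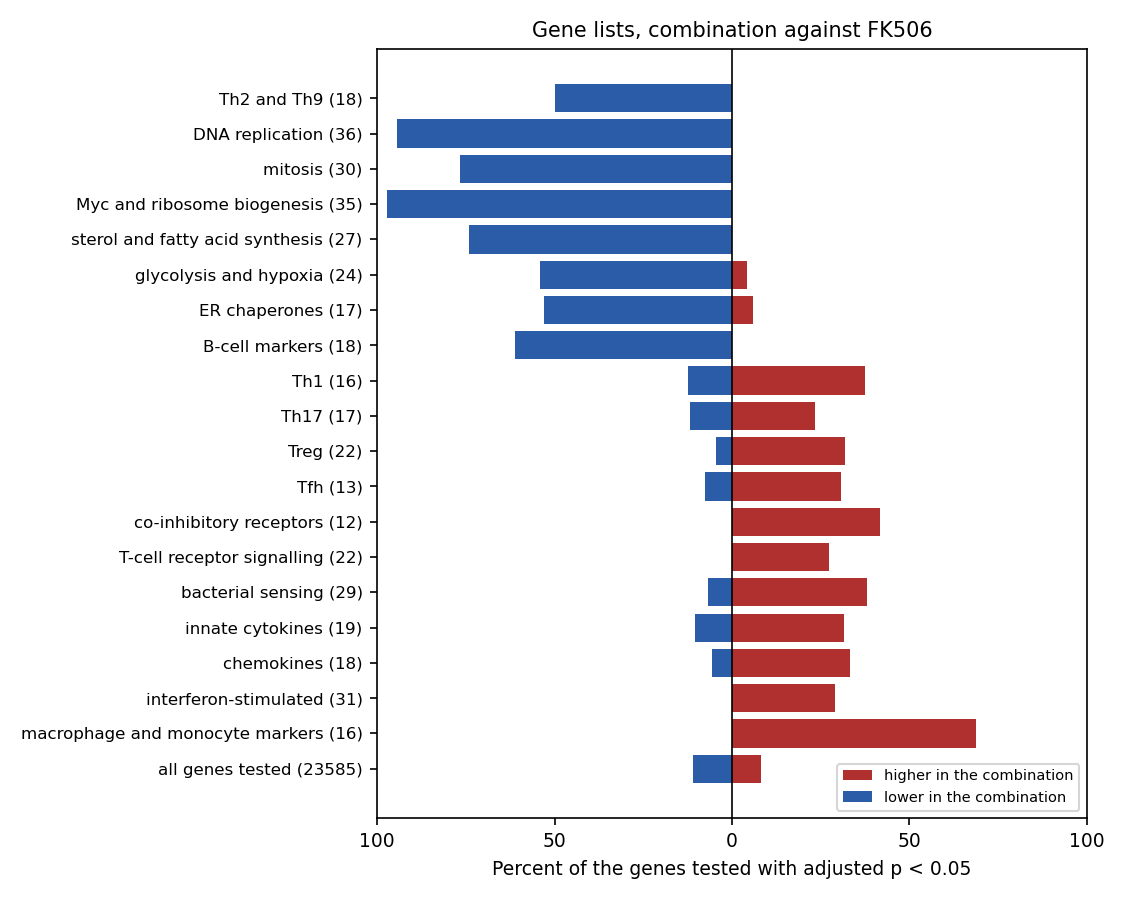
Percent of the tested genes of each list with an adjusted p under 0.05, lower in the combination to the left (blue) and higher to the right (red); the number of genes tested is in brackets, and the bottom bar is all genes tested (10.9% lower, 8.18% higher). Replication and ribosome biogenesis lie almost wholly on the lower side (34 of 36 and 34 of 35 genes), and the macrophage and monocyte markers lie on the higher side (11 of 16).

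Several iron and antioxidant genes rose, a group chosen after its values were seen and given here as single genes. Haem oxygenase *Hmox1*, which releases iron from haem, was at 12.5, 6.92 and 4.24 FPKM with FK506 and at 56.3, 53.2 and 56.7 with the combination (log2 fold change 2.73, SE 0.42, adjusted p = 0.0013). The ferritin heavy chain *Fth1*, which stores iron, rose from 411, 361 and 305 to 1075, 621 and 622 FPKM (log2 fold change 1.03, SE 0.22, adjusted p = 0.0071), and ferroportin *Slc40a1*, which exports it, from 0.316, 0.256 and 0.094 to 2.04, 2.44 and 2.15 (log2 fold change 3.21, SE 0.62, adjusted p = 0.0046). The transferrin receptor *Tfrc*, which takes iron up, fell from 117, 102 and 131 to 36.5, 48.5 and 49.2 FPKM (log2 fold change -1.48, SE 0.16, adjusted p = 0.00022). The genes of release, storage and export were higher and that of uptake lower in all 3 combination libraries than in the 9 others. *Gstm1*, a glutathione transferase, stood at 2.41, 1.19 and 1.03 FPKM with FK506 and 21, 11.6 and 11.7 with the combination (log2 fold change 3.17, SE 0.36, adjusted p = 0.00025). The quinone reductase *Nqo1* (log2 fold change 2.06, SE 0.35, adjusted p = 0.0024) and sulfiredoxin *Srxn1* (log2 fold change 1.56, SE 0.27, adjusted p = 0.0024) rose as well, as did the metallothioneins *Mt1* (1.44, adjusted p = 0.003) and *Mt2* (1.67, adjusted p = 0.002). Other classic antioxidant genes did not pass: *Gclm* had a log2 fold change of 0.16, *Txnrd1* of -0.11 and *Gsr* of -0.07. The summed macrophage and monocyte markers were higher in the same libraries (26.9 to 56.6 CPM with FK506, 141 to 211 with the combination), and their part in the rises of *Hmox1*, *Fth1* and *Slc40a1*, which macrophages also express, was not tested.

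**Figure D4:**
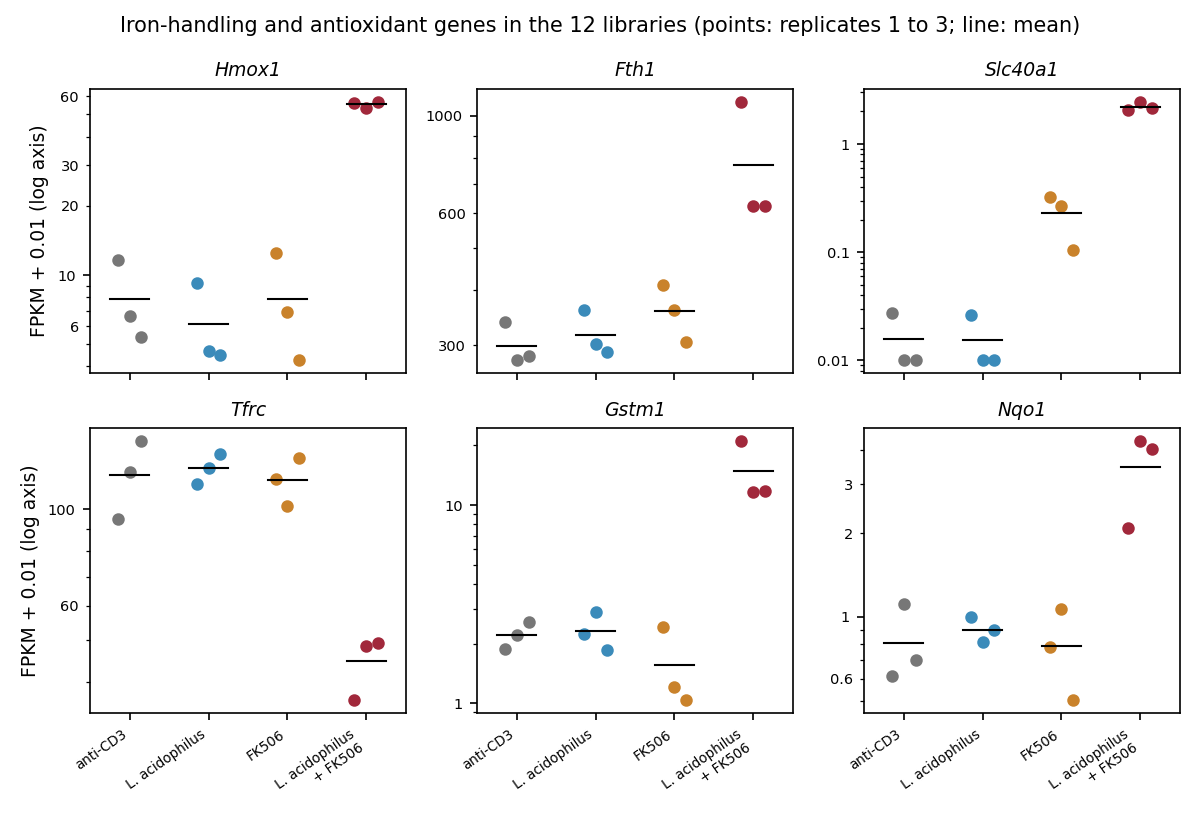
FPKM (+ 0.01, log axis) of 6 iron-handling and antioxidant genes in the 12 libraries, 1 point per library and a line at each group mean. The combination libraries lie above the 9 others for *Hmox1*, *Fth1*, *Slc40a1*, *Gstm1* and *Nqo1* and below them for *Tfrc*.

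The Th1, Th17 and Treg lists had more members that rose than fell. Of 16 Th1 genes 6 rose and 2 fell, with 1 falling without FK506 replicate 3 or without combination replicate 1 or 3. The 2 that fell are not among the genes named here, and the lowest log2 fold change in the list was -0.98. *Il18rap*, a chain of the IL-18 receptor, rose from 1.42, 1.22 and 0.801 to 4.31, 4.48 and 4.04 FPKM (log2 fold change 1.80, SE 0.28, adjusted p = 0.0014), *Stat4*, which relays IL-12, by 1.02 (adjusted p = 0.0038) and the chemokine receptor *Cxcr3* by 1.02 (adjusted p = 0.001) on the log2 scale. *Ifng* itself did not pass, at 4.13, 4.02 and 7.34 FPKM with FK506 and 3.34, 11.1 and 13 with the combination (adjusted p = 0.44), groups that overlapped. Of 17 Th17 genes 4 rose and 2 fell, with 8 rising in replicates 2 and 3 alone and 4 falling with only the libraries compared. The largest change in the list was the fall of *Il21*, a helper cytokine, from 8.09, 6.78 and 16.6 to 0.942, 1.11 and 1.04 FPKM (log2 fold change -3.44, SE 0.44, adjusted p = 0.00048). The other member that fell was the transcription factor *Irf4*, named after its values were seen (log2 fold change -1.12, SE 0.21, adjusted p = 0.0039). *Rora*, a nuclear receptor of Th17 cells, rose from 2.93, 1.94 and 1.1 to 7.61, 10.3 and 10.6 FPKM (log2 fold change 2.17, SE 0.35, adjusted p = 0.0018) and the receptor *Il23r* from 1.22, 0.813 and 0.344 to 4.7, 3.64 and 4.19 (log2 fold change 2.31, SE 0.48, adjusted p = 0.0067). *Il17a* stood at 5.15, 1.37 and 0.469 FPKM with FK506 and 6.6, 2.28 and 2.29 with the combination (adjusted p = 0.69), again overlapping.

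Of 22 Treg genes 7 rose and 1, *Il2ra*, fell (log2 fold change -0.70, SE 0.16, adjusted p = 0.011), and 3 fell without *L. acidophilus* replicate 1 or with only the libraries compared. For *Il2ra*, it did not pass without FK506 replicate 3 (adjusted p up to 0.0509). The count of rises moved with single libraries: 3 rose without FK506 replicate 2, 2 without FK506 replicate 3, 3 without combination replicate 1, 4 without combination replicate 3 and 12 without *L. acidophilus* replicate 1 or in replicates 2 and 3 alone. *Tigit*, an inhibitory receptor, rose from 24, 15.4 and 19.2 to 37.9, 37.1 and 36.6 FPKM (log2 fold change 0.89, SE 0.19, adjusted p = 0.0086). *Foxp3* had 44.8, 35.6 and 21.9 FPKM with FK506 and 108, 95.7 and 101 with the combination (log2 fold change 1.49, SE 0.40, adjusted p = 0.022), and it did not pass without FK506 replicate 2 or 3 or combination replicate 1 or 3 (adjusted p up to 0.0985). *Il10* did not pass, at 74.4, 25.8 and 47.2 and 22.4, 35.3 and 38 FPKM (adjusted p = 0.51), nor did *Ctla4* (0.88, adjusted p = 0.07), which passed with DESeq2, limma-voom or a replicate block, without TMM factors, in the fits on FPKM, in replicates 2 and 3 alone, and without *L. acidophilus* replicate 1 or FK506 replicate 1. Of 12 co-inhibitory receptors 5 rose and none fell. *Havcr2* (TIM-3) stood at 1.71, 1.25 and 0.976 FPKM with FK506 and 3.72, 3.77 and 3.998 with the combination (log2 fold change 1.46, SE 0.20, adjusted p = 0.00079), and *Vsir* (VISTA) rose as well (log2 fold change 0.99, SE 0.15, adjusted p = 0.0012).

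In the lists tied to calcineurin and to early activation, the counts of members that passed moved with single libraries. Of 15 calcineurin and NFAT genes tested 2 rose and 4 fell, beside 8.18% higher and 10.9% lower over all genes tested. In this list 1 fell without FK506 replicate 3 and 2 without FK506 replicate 2 or any 1 combination library. From 0 to 3 rose when 1 library was left out. *Rcan1*, an NFAT target used as a read-out of calcineurin activity, was at 3.92, 3.86 and 3.72 FPKM with FK506 and 4.91, 5.53 and 5.18 with the combination (adjusted p = 0.14). Of 26 activation-response genes 1 rose and 3 fell, beside 8.18% higher and 10.9% lower over all genes tested, and over the fits without 1 library 0 to 5 rose and 1 to 4 fell, with 5 rising without anti-CD3 replicate 1. *Il2*, the growth factor of activated T cells, went from 6.1, 10.4 and 15.2 to 3.16, 4.82 and 3.64 FPKM (log2 fold change -1.55, SE 0.48, adjusted p = 0.042), and it did not pass without *L. acidophilus* replicate 2 or FK506 replicate 2 or 3 or combination replicate 1, 2 or 3 (adjusted p up to 0.178). *Egr2*, another immediate response gene, did not pass (-0.39, adjusted p = 0.19), but passed with a replicate block. *Lif*, a cytokine of the IL-6 family, had 20.8, 17.5 and 38.8 FPKM with FK506 and 4.86, 5.5 and 5.36 with the combination (log2 fold change -2.39, SE 0.37, adjusted p = 0.0015).

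Most macrophage and monocyte marker transcripts rose from low levels. Of 16 macrophage and monocyte markers tested 11 rose and none fell, with a median log2 fold change of 2.31 (6 rose without FK506 replicate 3 and 7 without combination replicate 1). Their summed level was 26.9 to 56.6 CPM with FK506 and 141 to 211 with the combination, and *Cd163* was below the count filter. *Adgre1* (F4/80) was at 0.392, 0.222 and 0.158 FPKM with FK506 and 8.74, 1.55 and 1.4 with the combination, where replicate 1 stood above the other two (log2 fold change 3.83, SE 0.74, adjusted p = 0.0047). *Cd68*, a lysosomal glycoprotein of macrophages, rose from 10.2, 7.38 and 4.22 to 27.3, 25.4 and 26.6 FPKM (log2 fold change 1.77, SE 0.32, adjusted p = 0.0034), and the endotoxin co-receptor *Cd14* from 0.262, 0.234 and 0.225 to 2.71, 1.41 and 1.45 (log2 fold change 2.85, SE 0.45, adjusted p = 0.0017). Other large rises were those of the lectin *Clec4d* (log2 fold change 4.35), the phospholipase *Pla2g7* (3.57), *Ms4a7* (3.46), the glycoprotein *Gpnmb* (3.26) and the protease *Mmp25* (3.15), of which *Clec4d* did not pass with DESeq2 (adjusted p = 0.09). The chemokine *Ccl2* had a log2 fold change of 4.04, but it did not pass without FK506 replicate 2 or 3 or combination replicate 1 or 3 (adjusted p up to 0.0807). *Chad* had one of 3.26, but it did not pass without FK506 replicate 2 or 3 or combination replicate 1 (adjusted p up to 0.0881). The levels of *Adgre1*, *Cd68* and *Cd14* lie far below those of *Cd4*. Each of the combination libraries exceeded each FK506 library in these 3 genes, as was so for 4717 of the 23585 genes tested.

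Of 29 bacterial sensing genes 11 rose and 2 fell, with 6 or 7 rising without FK506 replicate 3 or any 1 combination library and 1 falling without FK506 replicate 3 or combination replicate 2. *Clec7a* (dectin-1), a receptor for microbial glucans, rose from 2.7, 1.94 and 0.891 to 6.05, 10.9 and 10.3 FPKM (log2 fold change 2.22, SE 0.39, adjusted p = 0.0027), and *Tlr13*, a sensor of bacterial rRNA, from 0.0841, 0.066 and 0.0252 to 0.496, 0.599 and 0.515 (log2 fold change 3.06, SE 0.68, adjusted p = 0.0091). *Tlr2*, the receptor for Gram-positive lipoproteins, was at 0.823, 0.61 and 0.595 FPKM with FK506 and 2.31, 1.49 and 1.52 with the combination (adjusted p = 0.036), and it did not pass without FK506 replicate 1, 2 or 3 or combination replicate 1, 2 or 3 (adjusted p up to 0.118). The adaptor *Myd88* did not pass (-0.15, adjusted p = 0.37), and *Tlr7*, a sensor of single-stranded RNA, fell from 10.7, 7.8 and 6.99 to 3.61, 2.93 and 2.73 FPKM (log2 fold change -1.52, SE 0.31, adjusted p = 0.006). The summed macrophage and monocyte markers given above moved with this list, and their part in it was not tested.

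Of 19 innate cytokine genes 6 rose and 2 fell. *Il12b*, the p40 subunit shared by IL-12 and IL-23, had the largest rise of the genes named here, from 0.0689, 0.0491 and 0 to 2.52, 5.21 and 5.14 FPKM (log2 fold change 6.52, SE 0.65, adjusted p = 0.00029). *Il6* rose from 0.135, 0.157 and 0.107 to 2.26, 1.12 and 1.65 FPKM (log2 fold change 3.49, SE 0.58, adjusted p = 0.0021), *Il18* from 0.516, 0.239 and 0.199 to 1.48, 1.8 and 1.45 (log2 fold change 2.03, SE 0.34, adjusted p = 0.0021) and *Tnf* from 13, 16.2 and 18.7 to 24.3, 28.5 and 29.5 (log2 fold change 0.69, SE 0.15, adjusted p = 0.0092). *Il1b* stood at 1.46, 0.861 and 0.202 FPKM with FK506 and 3.77, 1.84 and 1.7 with the combination, groups that did not overlap, but did not pass (adjusted p = 0.13). It passed with a replicate block and with limma on log2(FPKM + 1). Of 18 chemokine ligands 6 rose and 1 fell (3 rose without FK506 replicate 2 and 2 without combination replicate 1, and none fell without FK506 replicate 1 or 3 or combination replicate 1 or 3). *Ccl5*, which T cells also make, rose from 6.86, 5.27 and 4.99 to 26.2, 23.6 and 21.9 FPKM (log2 fold change 1.98, SE 0.17, adjusted p = 0.00012), and *Cxcl16* from 2.22, 2.4 and 1.09 to 11.1, 8.38 and 9.61 (log2 fold change 2.27, SE 0.45, adjusted p = 0.0049). The monocyte attractant *Ccl7* had 0.237, 0.0868 and 0 FPKM with FK506 and 3.91, 1.48 and 1.47 with the combination (log2 fold change 4.19, SE 0.99, adjusted p = 0.012), and it did not pass without combination replicate 1 (adjusted p up to 0.0563). The rises of these low-level genes moved together with the macrophage and monocyte markers, and the part of those cells was not tested.

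Of 31 interferon-stimulated genes 9 rose and none fell, beside 8.18% higher and 10.9% lower over all genes tested. Only 5 rose without FK506 replicate 1 or combination replicate 2, and 3 without FK506 replicate 3 or combination replicate 1. The list's median log2 fold change was 0.56, and 0.05 without combination replicate 1. Without FK506 replicate 2, 1 fell, and without combination replicate 1, 2 fell. In replicates 2 and 3 alone 5 rose and 5 fell. *Oasl1*, an antiviral regulator, rose from 0.555, 0.527 and 0.178 to 2.41, 2.12 and 2.47 FPKM (log2 fold change 2.34, SE 0.39, adjusted p = 0.0021). *Isg15*, a ubiquitin-like interferon target, did not pass, at 9.05, 5.98 and 6.94 and 19.4, 7.39 and 7.08 FPKM (adjusted p = 0.40), with combination replicate 1 high and the other two close to the FK506 level.

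B-cell transcripts fell. Of 18 B-cell markers 11 fell and none rose, with a median log2 fold change of -1.09, and their summed level was 1768 to 3427 CPM with FK506 and 1413 to 1598 with the combination. *Pax5*, the B-lineage factor, went from 14.7, 14.1 and 9.75 to 2.54, 4.64 and 4.6 FPKM (log2 fold change -1.80, SE 0.25, adjusted p = 0.00085). *Ighm*, the IgM heavy chain, did not pass (log2 fold change -0.40). The IgE heavy chain *Ighe*, chosen after its values were seen, stood at 20.6, 4.42 and 10.02 FPKM with FK506 and 0.13, 0.256 and 0.457 with the combination (log2 fold change -5.46, SE 0.65, adjusted p = 0.00034), and the IgG1 heavy chain *Ighg1* at 108, 61.1 and 79.2 and 3.59, 11.7 and 12 (log2 fold change -3.29, SE 0.48, adjusted p = 0.0011). Plasma-cell markers, which include *Ighg1*, summed to 201 to 487 CPM with FK506 and 100.3 to 109 with the combination. The part of the lower B-cell and plasma-cell marker levels in the fall of *Ighe* and *Ighg1* was not tested. Of 13 follicular helper T-cell genes 4 rose and 1 fell, with 2 rising without FK506 replicate 2 or combination replicate 2 or 3 and 1 without FK506 replicate 3. The one that fell was *Pou2af1*, a co-activator that B cells also express, by 2.24 on the log2 scale, and *Sh2d1a*, a signalling adaptor, rose by 1.29. Of 10 class II antigen presentation genes 4 fell and none rose, and 8 fell when only the 6 libraries compared were fitted.

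Fewer genes passed for the same bacterium without FK506. Against anti-CD3 alone, *L. acidophilus* changed 44 genes at an adjusted p under 0.05 and at least 2-fold (0.187% of genes tested), 37 higher and 7 lower. At an unadjusted p under 0.05 the number was 3489. The anti-CD3 libraries differed more among themselves than those of the other groups, with chi-squares per degree of freedom of 91.8 to 188, and the part of this spread in the count of 44 was not tested. The 44 rested on single libraries: leaving out any 1 of the 12 other than FK506 replicate 3 or combination replicate 1 moved the count by over 1.5 times, from 1 without *L. acidophilus* replicate 1 or 2 to 164 without anti-CD3 replicate 3. Of the 44, 22 were also called in the combination against FK506, 50% of the first list and 1.25% of the 1754 in the second, 21 of them in the same direction. The effect of *L. acidophilus* with FK506 minus that without it was tested directly, and 318 genes lay above (1.35%) and 707 below (3%) at an adjusted p under 0.05. The split was 1087 above and 1292 below with DESeq2 and 866 and 809 with limma on log2(FPKM + 1). Without FK506 replicate 3 the total of 1025 was 436, without *L. acidophilus* replicate 2 or 3 it was 331 or 391, and without combination replicate 2 or 3 it was 359 or 473.

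The growth lists made up part of the lower side. In that test, 25 of 36 DNA replication genes and 22 of 35 *Myc* and ribosome biogenesis genes lay below, and none above. Over all genes tested 3% lay below. The falls of these lists and of the Th2 and Th9 list against FK506 enter the difference, so the list counts are no separate support. How far they move when 1 library is left out was not tested. *Mcm2* had a log2 fold change of -1.15 with FK506 and -0.14 without it (difference -1.01, adjusted p = 0.0086), and *Rrp12* of -1.61 and -0.35 (difference -1.27, adjusted p = 0.0064). Of the 18 Th2 and Th9 genes 6 lay below. *Il4* had 60.2, 20.8 and 24.5 FPKM with anti-CD3 and 91, 17.7 and 21.9 with *L. acidophilus* alone (log2 fold change 0.21), and its difference between the effects was -4.63 (adjusted p = 0.017). *Il13* differed by -3.07 (adjusted p = 0.024) and *Gata3* by -1.10 (adjusted p = 0.0093). On the higher side lay *Hmox1*, at 2.73 with FK506 and -0.45 without (difference 3.18, adjusted p = 0.013), *Ccl5*, at 1.98 and -0.81 (2.79, adjusted p = 0.0021), and *Oasl1*, at 2.34 and -1.49 (3.83, adjusted p = 0.006). *Il12b* had 0 FPKM in every anti-CD3 library and 0.106, 0.159 and 0.123 with *L. acidophilus* alone, and its effects were not shown to differ (adjusted p = 0.71). *Foxp3* had 4.45, 4.73 and 6.2 FPKM with anti-CD3 and 24.7, 7.53 and 7.76 with *L. acidophilus*, with a difference between the effects of 0.19 (adjusted p = 0.93).

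**Figure D5:**
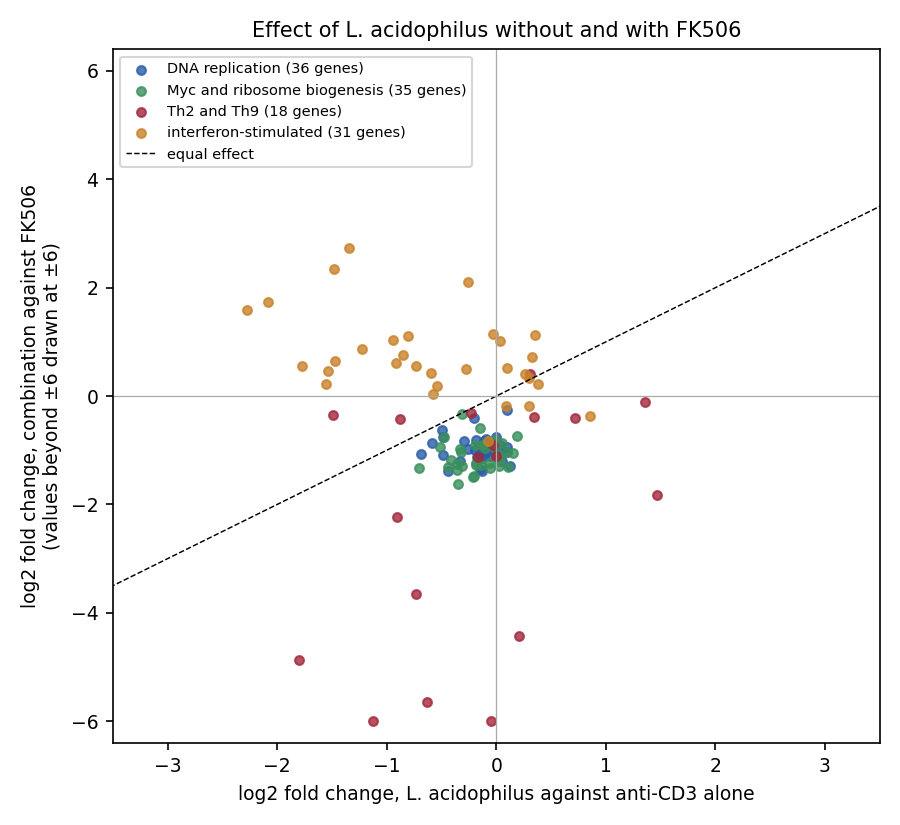
Log2 fold change of *L. acidophilus* against anti-CD3 alone (x axis) and of the combination against FK506 (y axis) for the genes of 4 lists, 1 point per gene, with a dashed line of equal effect. The replication and ribosome biogenesis genes lie near 0 on the x axis and near -1 on the y axis, and the Th2 and Th9 genes spread down to -6, where *Il9* and *Il24*, which lie beyond it, are drawn.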

How the data were processed

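RNA of mouse splenic CD4+ T cells was sequenced in 12 libraries, 3 per group. Per the labels, the submitters' processing notes name bcl2fastq 2.20.0, Trimmomatic, HISAT2 2.1.0 and StringTie 2.1.3b, with builds mm10 and GRCm38. Per gene and library, the files deposited hold 3 values: a count, an FPKM and a TPM. Counts were whole numbers and may be rounded StringTie estimates. TPM values were not used here. FPKM values were printed as levels, since they are per length, and were as deposited by the authors.

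Counts were fitted with edgeR 4.0.16 (quasi-likelihood, TMM factors) over all 12 libraries with 1 mean per group, on genes above 0 in at least 3 libraries. Adjusted p-values are Benjamini-Hochberg over 23585 genes. A gene was called at an adjusted p under 0.05 and at least 2-fold; list members were counted at the adjusted p alone, and the effect with FK506 was compared with that without it by the interaction contrast. SE was taken as the size of the log2 fold change over the root of the F statistic. CPM are the deposited counts per library total and TMM factor. Total counts were 45416397 to 64658165 per library, and libraries of a group differed by more than sampling noise, so the spread between libraries limits the precision.

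Named genes were the 12 largest rises and 12 largest falls among called genes that did not overlap and had a mean FPKM of at least 1, with the first 3 members of each list and up to 4 with the largest changes, of which the text takes those of the lists it describes, and genes stated as chosen after their values were seen. *Mcm3*, *Utp20*, *Il18*, *Cd68*, *Tlr7* and *Il10* were also chosen that way. Some genes that the rule names are not reported here. Members and lists were chosen with earlier results of these data known. Alternatives used DESeq2 1.42.0, limma 3.58.1 (voom, and log2 of FPKM plus 1 or 0.1), other filters, thresholds and library sets, and a replicate block. Promoters came from RefSeq (GRCm38.p6).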

Additional observations from a re-analysis of the deposited data

Results flagged for a closer look

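Of the 113 genes named above that were looked up for it, 49 had an effect of *L. acidophilus* that differed with and without FK506 by the direct test of the difference (edgeR, adjusted p under 0.05), 14 above and 35 below. Many of these genes were named for their change in the combination against FK506, which enters the difference, so this count supports nothing about them beside the 318 above (1.35%) and 707 below (3%) over all genes tested. Values are the log2 fold change with FK506 minus that without it.

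On the higher side, the effects differed for *Oasl1* by 3.83, *Slc7a11* by 3.67, *Hmox1* by 3.18, *Gstm1* by 3.17, *Ccl5* by 2.79, *Il18* by 2.57, *Isg15* by 2.33, *Nqo1* by 1.98 and *Sh2d1a* by 1.67. Smaller differences on that side were those of *Mt2* by 1.48, *Mt1* by 1.47, *Stat4* by 1.19, *Cdkn1b* by 0.87 and *Cd4* by 0.67.

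On the lower side, the effects differed for *Gask1a* by -5.12, *Akr1c18* by -4.85, *Il4* by -4.63, *Ighe* by -4.33, *Epas1* by -4.31, *Frzb* by -4.07, *Stra6* by -3.82, *Il21* by -3.21 and *Il13* by -3.07. Next in size on the lower side came *Scd2* by -2.23, *Shmt1* by -1.63, *Tfrc* by -1.45, *Utp20* by -1.42, *Srm* by -1.32, *Fasn* by -1.30, *Myc* by -1.29, *Nolc1* by -1.28 and *Rrp12* by -1.27. These were followed by *Cad* by -1.27, *Mcm10* by -1.26, *Rrm2* by -1.26, *Cdc6* by -1.21, *Ncl* by -1.21, *Ccne1* by -1.17, *Top2a* by -1.13, *Gata3* by -1.10 and *Mcm2* by -1.01. Differences nearer 0 were those of *Mcm3* by -0.99, *Il4ra* by -0.95, *Sqle* by -0.93, *Cdk1* by -0.85, *Aurkb* by -0.78 and *Pcna* by -0.72. The fitted differences for *Il9* (-13.53) and *Il24* (-13.98) rest on counts of 0 in the combination, so their size depends on the model's prior count and is no bound. Single outlying libraries were not tested in these groups of 3.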

How the results depend on the processing

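The 1754 genes called in the combination against FK506 became 647 with limma on log2(FPKM + 1), 901 at an adjusted p under 0.01 and 4508 with no fold cut-off, and ranged from 978 to 1905 when 1 library was left out. The split of 905 higher and 849 lower became 1098 and 690 without TMM factors, where the median of all genes was 0.12, and 1122 and 635 with log2(FPKM + 0.1). The 1025 genes whose effect differed with and without FK506 became 2379 with DESeq2 (1087 above and 1292 below), 1675 with log2(FPKM + 1) (866 and 809, against 318 and 707), 559 at 2-fold or more and 462 in replicates 2 and 3 alone, a setting chosen after seeing the data, and ranged from 331 to 1455 when 1 library was left out. The 44 genes of *L. acidophilus* alone became 439 with DESeq2, 147 with voom, 83 with genes above 0 in 1 library, 84 with filterByExpr, 11 with log2(FPKM + 1), 1 at an adjusted p under 0.01 and 3 in replicates 2 and 3 alone, and ranged from 1 to 164 when 1 library was left out. With only the libraries compared, edgeR called 0 of these, with 2676 at an unadjusted p under 0.05 and 439 called by DESeq2 over all 12 libraries. Among the lists, the 4 Th17 genes that rose became 6 to 8 and the 7 Treg genes 11 to 13 with limma-voom, with log2(FPKM + 1), with a replicate block or with only the libraries compared, and Treg also 11 with DESeq2. The activation list of 1 higher and 3 lower became 4 and 6 with a replicate block and 4 and 3 with only the libraries compared. The cause of these moves was not tested.

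The replicate numbers were shared between groups, but same-numbered FK506 and combination libraries correlated at 0.310, 0.052 and 0.190 over 13366 genes, with means of 0.184 for the same number and -0.093 for different numbers. Not every pair was over 0.1 and no source used here says what the numbers mark, so they were not taken to pair the samples. With a replicate block, 1920 genes were called in the combination against FK506, 1578 differed with and without FK506, and 69 were called for *L. acidophilus* alone. In 2 of 3 numbers both libraries correlated best with each other. Depth limits genes with few counts in a group, such as *Ccl7*, with 14, 4 and 0 counts in the FK506 libraries.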
